A study of Mus musculus with 10 samples.

Results

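Matrix metalloproteinases and their tissue inhibitors were examined through 10 transcripts, 8 enzymes (Mmp2, Mmp3, Mmp7, Mmp8, Mmp9, Mmp12, Mmp13 and Mmp14) and 2 inhibitors (Timp1 and Timp3). They were taken by gene symbol from tables of 48897 rows, one for sorted mouse prostate epithelium and one for the Myc-CaP cell line. In the epithelium, RNA was sequenced from EpCAM+ and CD45- prostate cells of C57BL/6 mice aged 3 months. There were 3 libraries (A, B and C) with no Arid1a deletion in their label, called control here, and 3 whose label adds Arid1aPC-/-, called labelled Arid1a KO. PC stands for deletion in the prostate epithelium by a Cre recombinase under the probasin promoter, and all 6 epithelium samples share a further engineered deletion of this kind, so the controls were not wild type. Myc-CaP, a line from a prostate tumour of an FVB mouse carrying a c-Myc transgene, gave 2 empty vector (EV) libraries and 2 Arid1a KO libraries made with a single-guide RNA. The sources used here do not give whether the 2 KO libraries were separate clones, nor whether animals were pooled, so p-values measure only the spread between these libraries, which may be technical.

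Matrix metalloproteinases are zinc enzymes made as inactive proenzymes that, once activated, cut collagens, elastin, laminins and many cell surface and secreted proteins. Gelatinases (Mmp2 and Mmp9) cut denatured collagen, collagenases (Mmp8 and Mmp13) cut fibrillar collagen, stromelysin-1 (Mmp3) cuts a wide range of matrix proteins, matrilysin (Mmp7) is made largely by glandular epithelium, macrophage elastase (Mmp12) cuts elastin, and Mmp14 is anchored in the membrane and activates pro-Mmp2. TIMPs bind the active site of these enzymes. Timp1 is secreted and can bind pro-Mmp9, while Timp3 is held in the matrix and also inhibits several ADAM proteases. In tumours, fibroblasts, macrophages, neutrophils and the tumour cells themselves can all be sources of these transcripts.

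Mouse Mmp genes are partly clustered. On GRCm38, 10 of them lie on chromosome 9 between 7272514 and 7699585, a span of 427.1 kb that holds 5 of the 10 transcripts studied here, namely Mmp13, Mmp12, Mmp3, Mmp8 and Mmp7 in that order. Mmp9 (chromosome 2, 164940780 to 164955850), Mmp2 (chromosome 8), Mmp14 (chromosome 14, 54431612 to 54445364), Timp1 (chromosome X, 20870166 to 20874735) and Timp3 (chromosome 10, 86300372 to 86349506) lie elsewhere. All 10 are annotated on the plus strand, and 4 overlap a gene on the minus strand in the GENCODE M21 annotation. Timp1 lies within Syn1, Timp3 within Syn3, the end of Mmp12 overlaps Mmp1b, and the start of Mmp7 overlaps the antisense gene AV064505. Reads were stated to be counted by strand.

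RefSeq promoters, from 250 bases before to 50 bases after a start site on GRCm38.p6, were matched by symbol for 8 of the 10 genes, giving 10 promoters. Mmp2 and Mmp9 were not matched. The letters TGANTCA, bound by AP-1 factors such as Fos and Jun and read on both strands, were present in 4 of the 10 promoters, and in 7.79% of the 32544 distinct mouse promoters of the same length. The 4 belonged to Mmp13, Mmp12, Mmp3 and Mmp7, all in the chromosome 9 cluster. Mmp8, also in this cluster, did not hold them in its promoter. In Mmp12 the letters lay in the promoter of the downstream start site and not in that of the upstream one. In Mmp7 they lay in the promoter of the upstream start site and not in that of the downstream one. The 100 bases before each start are shown because these 4 neighbouring genes carry the same letters close to an annotated start. The part of these letters in the level of any transcript was not tested. Each is on the plus strand, 5′ to 3′, with TGANTCA in capitals.
Mmp13, chr9:7272414-7272513: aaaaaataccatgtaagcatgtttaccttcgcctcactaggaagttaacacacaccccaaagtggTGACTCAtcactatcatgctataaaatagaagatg
Mmp12, chr9:7347274-7347373: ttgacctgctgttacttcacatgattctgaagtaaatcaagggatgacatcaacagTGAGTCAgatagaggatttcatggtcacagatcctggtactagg
Mmp3, chr9:7445722-7445821: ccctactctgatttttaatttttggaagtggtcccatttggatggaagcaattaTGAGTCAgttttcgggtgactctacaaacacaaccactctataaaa
Mmp7, chr9:7691990-7692089: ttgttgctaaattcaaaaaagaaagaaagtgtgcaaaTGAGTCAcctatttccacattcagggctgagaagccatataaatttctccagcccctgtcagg

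The capitals begin 35 bases before the start in Mmp13, 44 in Mmp12, 46 in Mmp3 and 63 in Mmp7. A second set of letters, AGGAAG on either strand, which ETS factors can bind, was present in 9 of the 10 promoters against 35.1% of all promoters. TATAAA on either strand was present in 5 of the 10 against 13.6%. The NF-kB consensus was found in 0 of the 10 and in 4.53% of all promoters. These 4 sets of letters do not contain one another, and a match or its absence describes these windows only.

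Before the transcripts themselves, the labels and libraries were checked. Arid1a was not reduced in the epithelium libraries labelled Arid1a KO, at 31.1, 28.8 and 30.8 RPKM (a read count divided by gene length and by how many reads the library had mapped) against 27.8, 21.9 and 26.5 in the controls, a log2 fold change of 0.25 (adjusted p = 0.054, limma). Which part of Arid1a was deleted is not visible in a value for the whole gene. In Myc-CaP it was 39.5 and 40.3 TPM (length-scaled values brought to one common sum per library) in KO against 60.5 and 61.0 in EV, a log2 fold change of -0.59 (adjusted p = 0.0102). Summed RPKM was between 441646 and 473331 in the controls and between 397999 and 403031 in the libraries labelled Arid1a KO. The smallest steps between low values put the depth of the other 5 epithelium libraries between 0.97 and 1.23 times that of control A, control B being the deepest.

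Changes are given on the log2(RPKM + 1) scale, labelled Arid1a KO minus control, with the standard error (SE) of the limma fit. P-values were adjusted over all 16275 genes tested in the epithelium, with the call set at 0.05. All 10 transcripts passed the filter on low values. Of these, 6 rose, 3 fell and 1, Mmp3, was not called. This has to be read against a background in which 57.1% of all tested genes were called, 27.5% higher and 29.6% lower. Groups did not overlap for 9 of the 10 transcripts, and for 66.7% of all tested genes. Over the 10 the median log2 fold change was 0.59, and over all genes -0.03.

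**Figure D1:**
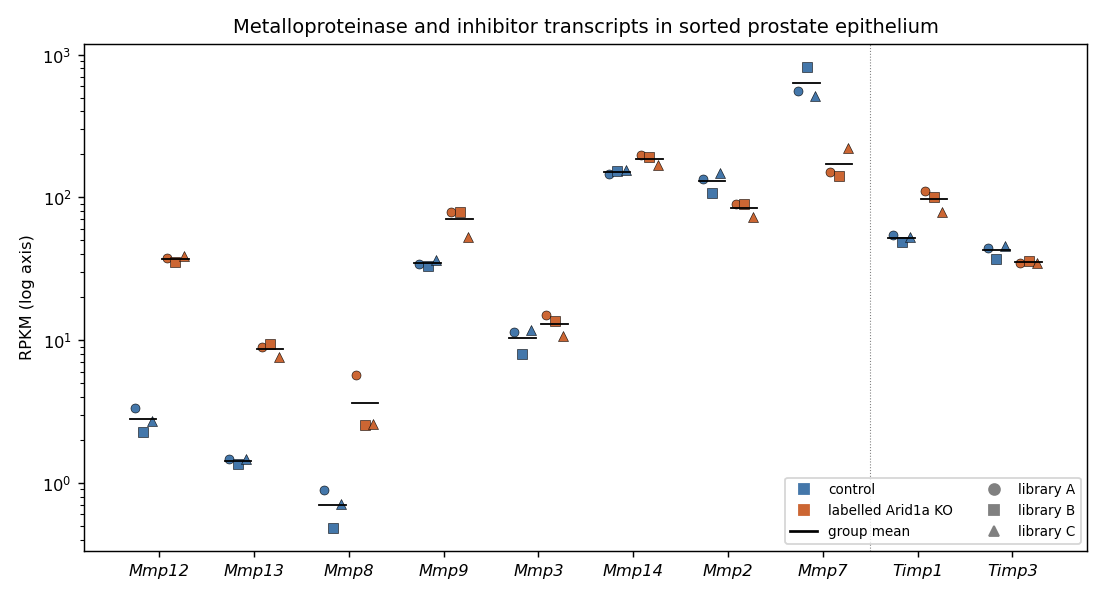
RPKM of the 10 transcripts in the 6 epithelium libraries, on a log axis, with blue for control, orange for libraries labelled Arid1a KO, a symbol for each library letter and a bar at each group mean. Mmp12 moved from a mean of 2.77 to 37.2, Mmp7 from 630 to 170, and Mmp3 is the only transcript whose groups overlap.

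Mmp12, macrophage elastase, changed most. It stood at 3.36, 2.28 and 2.69 RPKM in controls A, B and C and at 37.7, 35.1 and 38.9 in the libraries labelled Arid1a KO. Every value of the second group was above 10 times the control mean, and the spread within each group was small beside the gap. The means were 2.77 ± 0.545 and 37.2 ± 1.96 (SD, n = 3 each), a 13.4-fold difference, with a log2 fold change of 3.35 (SE 0.11, adjusted p = 2.35e-06). By size of change Mmp12 ranked 51 among the 16275 genes. Its log2 fold change stayed between 3.22 and 3.72 over the 14 alternative settings.

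The collagenases rose from low levels. Mmp13, collagenase 3, was at 1.46, 1.35 and 1.46 RPKM in the controls and 9.0, 9.35 and 7.57 in the libraries labelled Arid1a KO. The groups lay far apart. The mean was 6.06-fold higher, and the log2 fold change was 1.99 (SE 0.09, adjusted p = 9.8e-06). Mmp8, neutrophil collagenase, was at 0.895, 0.483 and 0.706 RPKM in the controls and 5.65, 2.56 and 2.58 in the libraries labelled Arid1a KO. Library A of the second group held over 2 times as much Mmp8 as B and C, so its mean of 3.60 carried an SD of 1.78 (n = 3), yet all 3 values were above all controls. The log2 fold change of Mmp8 was 1.38 (SE 0.24, adjusted p = 0.00232). Because Mmp8 lay below 1 RPKM in the controls, its size depended on the pseudocount, and it was 2.15 with 0.1 in place of 1.

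The gelatinases moved in opposite directions. Mmp9, gelatinase B, was at 33.9, 33.1 and 36.4 RPKM in the controls and 78.9, 79.1 and 52.7 in the libraries labelled Arid1a KO. It was higher in 3 of 3, less so in library C. The means were 34.5 ± 1.69 and 70.2 ± 15.2 (SD, n = 3 each), and the log2 fold change was 0.98 (SE 0.15, adjusted p = 0.00127). Mmp2, gelatinase A, was at 134, 107 and 148 RPKM in the controls and fell to 90.5, 89.4 and 72.5. The groups did not overlap, and library C was again the lowest of its group. The log2 fold change of Mmp2 was -0.61 (SE 0.14, adjusted p = 0.00667).

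Mmp14, the membrane-anchored enzyme that activates pro-Mmp2, was abundant and rose little. It was at 145, 154 and 155 RPKM in the controls and 198, 193 and 168 in the libraries labelled Arid1a KO. All 3 were above the controls, the nearest by a small margin. On the log2 scale it rose by 0.30 (SE 0.08, adjusted p = 0.0171). This call was lost when control A (0.27, adjusted p = 0.0599), Arid1a KO A (0.25, adjusted p = 0.0644) or Arid1a KO B (0.27, adjusted p = 0.0584) was left out. It was also lost when the trend of fold change on gene length was removed (0.21, adjusted p = 0.062), and rescaling the libraries to the same sum gave 0.47.

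Mmp3, stromelysin-1, was the only enzyme of the 8 that was not called. It was at 11.3, 7.95 and 11.8 RPKM in the controls and 15, 13.5 and 10.6 in the libraries labelled Arid1a KO. The value of library C lay within the control range. The log2 fold change was 0.31 with a 95% interval from -0.08 to 0.70 (adjusted p = 0.145). With the length trend removed it was 0.51 and was called (adjusted p = 0.0338).

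Mmp7, matrilysin, was the most abundant of the 10 in the controls and the one that fell most. It was at 558, 819 and 513 RPKM in the controls and 150, 141 and 220 in the libraries labelled Arid1a KO. The lowest control was over 2 times the highest of the other group. The means were 630 ± 165 and 170 ± 43.0 (SD, n = 3 each), a 3.70-fold difference, and the log2 fold change was -1.88 (SE 0.22, adjusted p = 0.000354). Over the 14 alternatives it stayed between -2.07 and -1.66. Mmp7 and Mmp12 lie in the same chromosome 9 cluster, and their transcripts moved in opposite directions. Both have TGANTCA in a promoter, in Mmp12 that of the downstream start only and in Mmp7 that of the upstream start only. The part of these letters in either change was not tested.

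Of the inhibitors, Timp1 rose. It was at 54.2, 48.9 and 53.0 RPKM in the controls and 110, 101 and 79.5 in the libraries labelled Arid1a KO. Library C was the lowest of its group, as for Mmp9, and the groups were far apart. Timp1 rose by 0.87 on the log2 scale (SE 0.12, adjusted p = 0.0007). Timp3 was at 44.5, 37.2 and 45.8 RPKM in the controls and 34.6, 35.8 and 34.6 in the libraries labelled Arid1a KO. The groups did not overlap, but the highest of these was close to control B. The log2 fold change of Timp3 was -0.27 (SE 0.09, adjusted p = 0.0287). The call was lost in 8 of 14 alternatives. It was lost without control A (-0.23, adjusted p = 0.0897), control C (-0.21, adjusted p = 0.1), or any one of Arid1a KO A (-0.26, adjusted p = 0.0776), B (-0.28, adjusted p = 0.0594) and C (-0.26, adjusted p = 0.0698). It was also lost with no filter (adjusted p = 0.0571), quantile normalization (adjusted p = 0.0699) and the same sum per library (-0.10, adjusted p = 0.46). With the length trend removed it was -0.43.

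**Figure D2:**
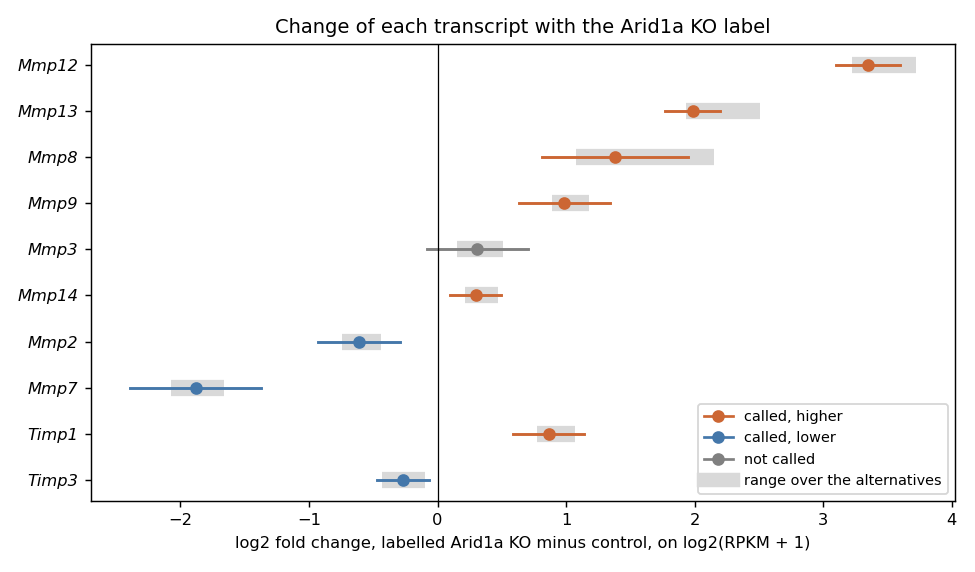
Log2 fold change of each transcript in the epithelium, labelled Arid1a KO minus control on log2(RPKM + 1), as points with the 95% interval of the limma fit, over grey bars for the range across alternative settings. Mmp12 stands at 3.35 and Mmp7 at -1.88, while the grey bar of Timp3 reaches -0.10.

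The rescaling matters for the small changes, because the summed RPKM of the libraries labelled Arid1a KO was lower. Giving all libraries the same sum moved the median over all genes from -0.03 to 0.11 and the share of calls that were higher from 48.1% to 64.9%. Relative to that median, Timp3 was at -0.24 as deposited and -0.21 rescaled, Mmp14 at 0.32 and 0.36, and Mmp2 at -0.58 and -0.55. None of the 10 changed direction under any of the 14 settings in which it was tested.

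Together the 8 enzymes summed to 888, 1120 and 869 RPKM in the controls and 585, 564 and 572 in the libraries labelled Arid1a KO. The sum followed Mmp7. That enzyme made up 62.8%, 72.8% and 59.1% of the summed level in the controls and 25.7%, 25.1% and 38.4% in the other group. Without Mmp7, the other 7 enzymes summed to 330, 306 and 355 RPKM in the controls and 434, 422 and 353 in the libraries labelled Arid1a KO, where library C lay within the control range. Mmp14 made up 16.4%, 13.7% and 17.8% of the sum in the controls and 33.8%, 34.3% and 29.3% in the libraries labelled Arid1a KO. It was the most abundant enzyme of the 8 in libraries A and B of that group, and Mmp7 still was in library C. The 2 inhibitors summed to 98.7, 86.1 and 98.8 RPKM in the controls and 144, 136 and 114 in the libraries labelled Arid1a KO.

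Ratios between transcripts within a library do not depend on how the library was scaled. The ratio of Mmp2 to Mmp9 was 3.97, 3.23 and 4.06 in the controls and 1.15, 1.13 and 1.38 in the libraries labelled Arid1a KO. Mmp2 stayed above Mmp9 in all 6 libraries, but by far less in the second group. The ratio of Timp1 to Timp3 was 1.22, 1.31 and 1.16 in the controls and 3.17, 2.82 and 2.30 in the other group. Mmp12 to Mmp13 was 2.29, 1.69 and 1.84 against 4.19, 3.75 and 5.14, and Mmp2 to Mmp14 was 0.925, 0.694 and 0.953 against 0.458, 0.462 and 0.432. Groups did not overlap in these 4 ratios, and each exact two-sided permutation test gave p = 0.1, the smallest that 3 libraries against 3 allow (0.125 after Benjamini-Hochberg adjustment over the 5 ratios computed). For Mmp2 to Mmp9, Mmp2 to Mmp14 and Timp1 to Timp3 this outcome was fixed in advance. The transcripts of each of these pairs had moved in opposite directions without overlap, so their ratio had to separate. Those tests add nothing to the values of the single transcripts. The ratio of Mmp9 to its inhibitor Timp1 was 0.625, 0.677 and 0.686 in the controls and 0.719, 0.786 and 0.663 in the libraries labelled Arid1a KO. Here the groups overlapped, with a log2 difference of 0.12 (exact permutation p = 0.3, adjusted 0.3).

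**Figure D3:**
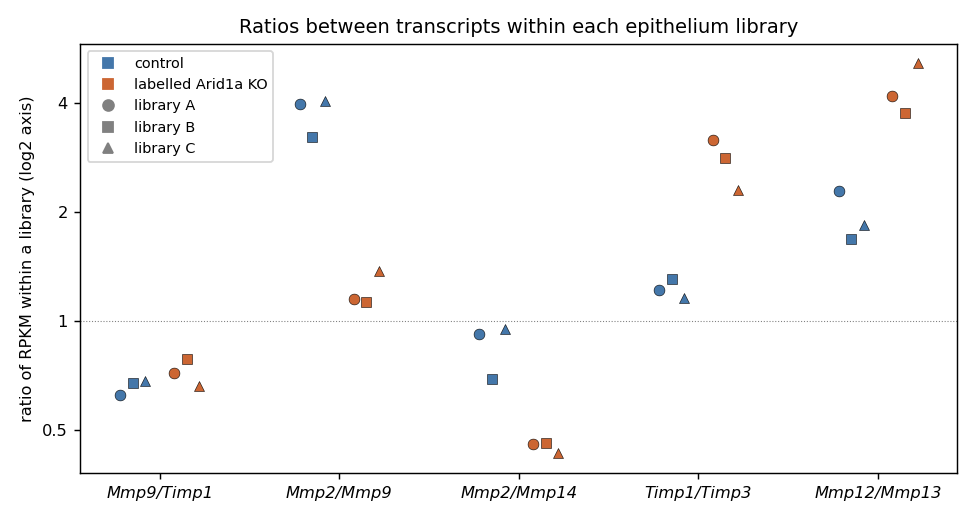
Ratios of RPKM between pairs of transcripts within each epithelium library, on a log2 axis, blue for control and orange for libraries labelled Arid1a KO. The ratio of Mmp2 to Mmp9 lies between 3.23 and 4.06 in the controls and between 1.13 and 1.38 in the other group, and only Mmp9 to Timp1 overlaps.

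Libraries within a group also differed in a common way. Among the controls, library B was the lowest for 8 of the 10 transcripts and the highest for Mmp7. Among the libraries labelled Arid1a KO, library C was the lowest for 7 and the highest for Mmp7 and Mmp12. The summed level of 10 fibroblast markers was also lowest in those 2 libraries, at 1750 RPKM in control B against 2310 and 2540 in A and C, and at 1460 in Arid1a KO C against 2030 and 2050 in A and B. So was that of 5 endothelial markers, at 28.6 RPKM in control B against 38.6 and 39.2 in A and C. In Arid1a KO C it was 39.7, against 50.6 and 46.6 in A and B. The sums of the plasminogen system, ADAM and matrix lists, given below, were lowest in those libraries too. Sums of macrophage, neutrophil, leukocyte, smooth muscle and epithelial markers, other Mmp genes and other inhibitors were not lowest in both. The part of fibroblast or endothelial RNA in the level of any of the 10 transcripts was not tested.

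Markers of cell types other than epithelium were present in the sorted cells and moved with the groups. In bulk RNA, fewer cells of a type and less RNA per cell cannot be told apart. Counts of calls in these and all later epithelium lists stand against 27.5% of all tested genes called higher and 29.6% called lower. The 10 macrophage markers summed to 2880, 3160 and 2750 RPKM in the controls and 5750, 5030 and 5100 in the libraries labelled Arid1a KO, and 10 of 10 rose. The most abundant were Lyz2, lysozyme, with a mean of 772 RPKM in the controls against 1880, and C1qa, a complement subunit, with 604 against 868. The 6 general leukocyte markers summed to 766, 785 and 785 against 999, 937 and 912, with 5 higher and 1 lower. Cd52 fell from a mean of 344 to 161 RPKM, and Laptm5 rose from 190 to 361. Ptprc, which encodes the CD45 used to sort cells out and is singled out here after its values were seen, was at 30.3, 26.0 and 29.5 RPKM in the controls and 56.2, 58.1 and 57.6 in the libraries labelled Arid1a KO. RNA of CD45 was thus detected in all 6 libraries of the CD45- gate and was higher in the group where Mmp12, Mmp8 and Mmp9 were higher. The part of leukocyte or macrophage RNA in those rises was not tested.

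Of 12 neutrophil markers, 9 were tested, of which 4 rose, 1 fell and 4 were not called, and their sums were 435, 580 and 423 RPKM in the controls and 1010, 999 and 767 in the libraries labelled Arid1a KO. Most of that gap was Ltf, lactotransferrin, which rose from a mean of 89.8 to 401 RPKM and which glandular epithelium can also make. S100a9 was at 189 ± 36.4 and 251 ± 68.0 (SD, n = 3 each) with overlapping groups. The granule genes Mpo, Elane and Fcnb, which mark immature neutrophils, were below the filter in the epithelium. Besides Ltf, the receptors Cxcr2 (7.37 to 18.3 RPKM) and Csf3r (23.1 to 49.4) and the surface protein gene Ly6g (0.409 to 1.13) rose, and Camp, a granule peptide gene, fell (0.946 to 0.396). S100a8 (144 and 177), S100a9, Retnlg (22.6 and 27.1) and Ngp (1.44 in both groups) were not called. The part of neutrophil RNA in the rise of Mmp8, which neutrophils store, was not tested.

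The fibroblast list held 1 gene that rose, 4 that fell and 5 not called of 10, with sums of 2310, 1750 and 2540 RPKM in the controls and 2030, 2050 and 1460 in the libraries labelled Arid1a KO. Its most abundant genes, Col1a1 and Col3a1, the chains of fibrillar collagens, were not called (means 602 and 655 RPKM for Col1a1, adjusted p = 0.65, and 499 and 531 for Col3a1, adjusted p = 0.693). Dcn, decorin, fell from 500 to 147 RPKM and Lum, lumican, from 52.5 to 21.5. Fap, the gene of the list that rose, went from 1.28 to 2.05 RPKM. Mmp2 and Timp3, which fibroblasts commonly make, fell in the same libraries, Timp3 with a call kept in 6 of 14 alternatives. Fibroblasts can also be sources of Timp1 and Mmp14, which rose by 0.87 and 0.30, Mmp14 with a call kept in 10 of 14 alternatives. The same holds for Mmp3, which was not called. The part of fibroblast RNA in any of these changes was not tested. Of 5 smooth muscle markers 1 rose and 4 fell, with Tagln at 62.3 against 35.6 RPKM and Acta2 at 38.0 against 64.2. Of 5 endothelial markers 1 rose and 4 were not called, with Pecam1 at 13.2 against 15.7 and Cdh5 at 7.81 against 13.5.

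The epithelial markers check the sort. Of 6, 2 rose, 2 fell and 2 were not called, with Krt8 at 859 ± 108 and 875 ± 9.05 RPKM (SD, n = 3 each, adjusted p = 0.803). Krt5 rose from a mean of 302 to 762 RPKM. Epcam, the gene of the protein used to sort cells in, fell from 304 to 201 RPKM, or -0.59 on the log2 scale. Epithelial RNA was therefore present in all 6 libraries, beside the RNA of the other types.

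**Figure D4:**
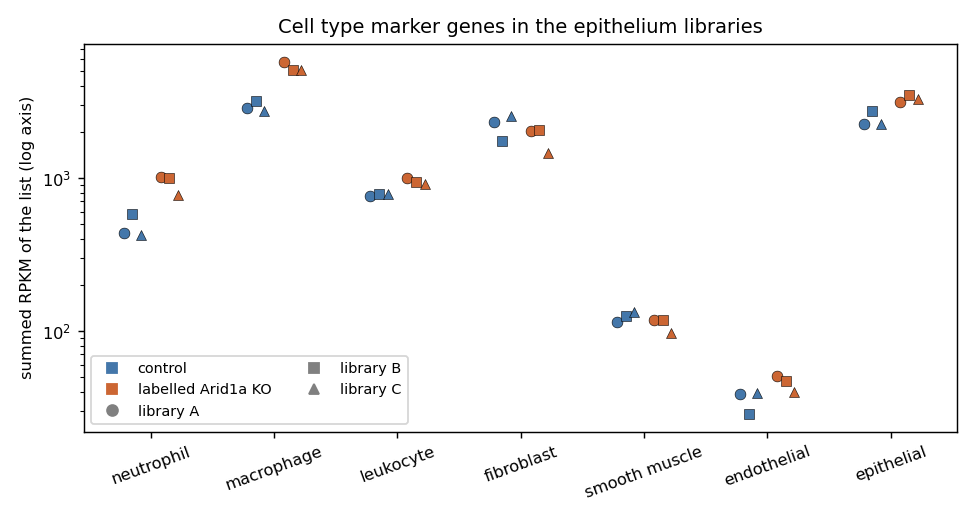
Summed RPKM of 7 lists of cell type markers in each epithelium library, on a log axis, blue for control and orange for libraries labelled Arid1a KO. Macrophage markers sum to between 2750 and 3160 in the controls and between 5030 and 5750 in the other group, while the fibroblast sums overlap.

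The rest of the family was followed through 15 other Mmp genes, of which 8 passed the filter, 2 rose, 4 fell and 2 were not called, with a median log2 fold change of -0.22. Mmp19 was at 11.4, 8.90 and 11.6 RPKM in the controls and 39.4, 30.3 and 25.7 in the libraries labelled Arid1a KO, a log2 fold change of 1.49 (adjusted p = 0.000243). Mmp25, a membrane enzyme of leukocytes, rose from a mean of 2.50 to 6.66 RPKM. Mmp23 fell from 18.9 to 8.75, Mmp24 from 2.71 to 1.28 and Mmp15, another membrane-anchored enzyme, from 159 to 122. Mmp11 was at 4.36 and 3.13, a fall called in the full fit and in 2 of the 6 fits that left out a library. The other 5 genes of the chromosome 9 cluster, Mmp1a, Mmp1b, Mmp10, Mmp20 and Mmp27, were below the filter. Of these, Mmp10 was at 0.0389, 0 and 0.074 RPKM in the controls and higher, at 0.493, 0.677 and 0.541, in the libraries labelled Arid1a KO. For Mmp1a, Mmp1b, Mmp20 and Mmp27 the groups overlapped.

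A list of 7 further inhibitors and related proteins held 4 genes that passed the filter, and those 4 fell, with a median of -1.35 against -0.03 over all genes. Of the 3 that did not pass it, A2m, alpha-2-macroglobulin, was at 0.184, 0.101 and 0.180 RPKM in the controls and higher, at 0.494, 0.575 and 0.478, in the libraries labelled Arid1a KO. Spock3 was at 0.328, 0.495 and 0.482 RPKM in the controls and lower, at 0.0387, 0.109 and 0.154, in the other group. For Spock1 the groups overlapped, with means of 0.56 RPKM in the controls and 0.319 in the other group. Timp2, which with Mmp14 takes part in the activation of pro-Mmp2, was at 189, 176 and 196 RPKM in the controls and 131, 128 and 139 in the libraries labelled Arid1a KO. The groups were well apart, with a log2 fold change of -0.49 (adjusted p = 0.000883). Timp4, at a mean of 5.22 RPKM in the controls, fell by 1.62 on the log2 scale, Reck, a membrane-anchored inhibitor, fell from 4.56 to 1.59 RPKM, and Spock2 from 8.69 to 1.63. Spock2 encodes testican-2, which is known to counter the inhibition of membrane-type Mmps by other testicans and is not itself such an inhibitor.

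The plasminogen system, whose protease plasmin can activate pro-Mmps, was followed through 9 genes. Of the 8 that passed the filter, 6 rose, 1 fell and 1 was not called, with a median of 0.87. Over all tested genes 27.5% were called higher and 29.6% lower. Below the filter was Plg, which encodes plasminogen itself. It was at 0 RPKM in every control and at 0, 0.0122 and 0 in the libraries labelled Arid1a KO. Plaur, the urokinase receptor, was at 99.7, 96.0 and 97.7 RPKM in the controls and 275, 266 and 217 in the libraries labelled Arid1a KO, a log2 fold change of 1.35 (adjusted p = 5.13e-05). Furin, a convertase that activates pro-Mmp14, rose from a mean of 47.6 to 94.2 RPKM. Plat, the tissue activator of plasminogen, rose from 64.9 to 121, and Serpinb2, an inhibitor of plasminogen activators, from 2.07 to 5.37. Serpine2, a serpin that inhibits thrombin and urokinase, fell from 89.1 to 27.1.

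Of 13 ADAM and ADAMTS proteases, relatives of the Mmps, 7 rose, 4 fell and 2 were not called, with a median of 0.51. Adam8, found on leukocytes, rose from a mean of 24.3 to 87.3 RPKM. Adam12 rose from 0.519 to 4.62, Adam19 from 4.98 to 10.5 and Adam17, the TNF convertase that Timp3 inhibits, from 20.1 to 32.0. Those that fell were Adamts2 (16.9 to 9.49), Adamts5 (3.69 to 2.27, called in 1 of the 6 fits that left out a library), Adamts15 (4.84 to 3.39) and Adam15 (52.7 to 44.6).

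Matrix proteins that these enzymes cut were followed through 9 genes, of which 3 rose, 1 fell and 5 were not called, with a median of 0.33. Fn1, fibronectin, was at 59.9, 33.6 and 59.6 RPKM in the controls and 426, 348 and 305 in the libraries labelled Arid1a KO, a log2 fold change of 2.83 (adjusted p = 7.8e-05). The laminin chains Lama3 and Lamb3 rose, with Lama3 at 5.47 against 13.7 RPKM and Lamb3 at 29.9 against 44.2. Eln, elastin, the substrate of Mmp12, fell from 104 to 25.3 RPKM. The 5 genes that were not called were collagen chains.

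Myc-CaP libraries were compared separately, in TPM, and 6.43% of the 13974 tested genes were called there. The sources describe culture of these cells and also tumours grown from them, and the labels do not settle which of these the libraries came from. Only 1 of the 10 transcripts, Timp1, reached the mean of 0.5 TPM needed for the test, and 0 were called by limma, with 0 at an unadjusted p under 0.05 (with no filter, 0 of 8 by either count). Timp1 was at 68.9 and 66.3 TPM in EV and 69.6 and 60.9 in KO. The KO values lay on both sides of the EV values. The log2 fold change was -0.05 with a 95% interval from -0.27 to 0.16 (adjusted p = 0.771, limma), and it was 0.04 without KO library 2. Timp1 changed by 0.87 in the epithelium, but the tables differ in unit and normalization, and the difference between the systems was not tested.

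The other 9 transcripts were below 1 TPM in every Myc-CaP library. Mmp7, the most abundant of the 10 in the epithelium controls, and Mmp8 were listed at 0 in all 4 libraries. Mmp12 was at 0 and 0.0344 TPM in EV and listed at 0 in both KO libraries. Mmp9 was listed at 0 in both EV libraries and at 0.0356 and 0.0387 in KO, and Mmp13 at 0 in EV and 0.0452 and 0.0983 in KO. The smallest steps between low values in these libraries put those KO values at 1 and 1 step for Mmp9 and 1 and 2 steps for Mmp13, so they rest on about that many reads.

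Mmp2 and Mmp14 followed the library number rather than the genotype. Mmp2 was at 0.107 and 0.849 TPM in EV libraries 1 and 2 and at 0.151 and 0.533 in KO libraries 1 and 2. Mmp14 was at 0.0300 and 0.648 in EV and 0.0318 and 0.554 in KO. Both number 2 libraries were above both number 1 libraries for these transcripts. The same held for 5 of 7 detected fibroblast genes and 5 of 5 smooth muscle genes, and for 22.7% of all tested genes. Tested genes had a mean of at least 0.5 TPM, whereas both list counts include genes below it. An example is Dcn, at 0.0542 and 0.123 TPM in EV libraries 1 and 2 and 0.0575 and 0.0625 in KO. The smallest step between low values, about 1 read, was 1.137 times that of EV 1 in EV 2. It was 1.154 times in KO 2 and 1.061 times in KO 1, so equal read counts give higher TPM in the number 2 libraries. The list counts therefore cannot be set against the 22.7%. Col1a1 was at 0.211 and 19.4 in EV and 0.347 and 7.45 in KO, and Acta2 at 0 and 4.89 in EV and 0.0427 and 2.27 in KO. The part of stromal RNA in the Mmp2 and Mmp14 values was not tested. Mmp3 was at 0.0633 TPM in EV library 1, 0.0672 in KO library 1 and 0 in both number 2 libraries, and Timp3 was at 0 in both number 1 libraries, 0.0554 in EV library 2 and 0.197 in KO library 2.

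**Figure D5:**
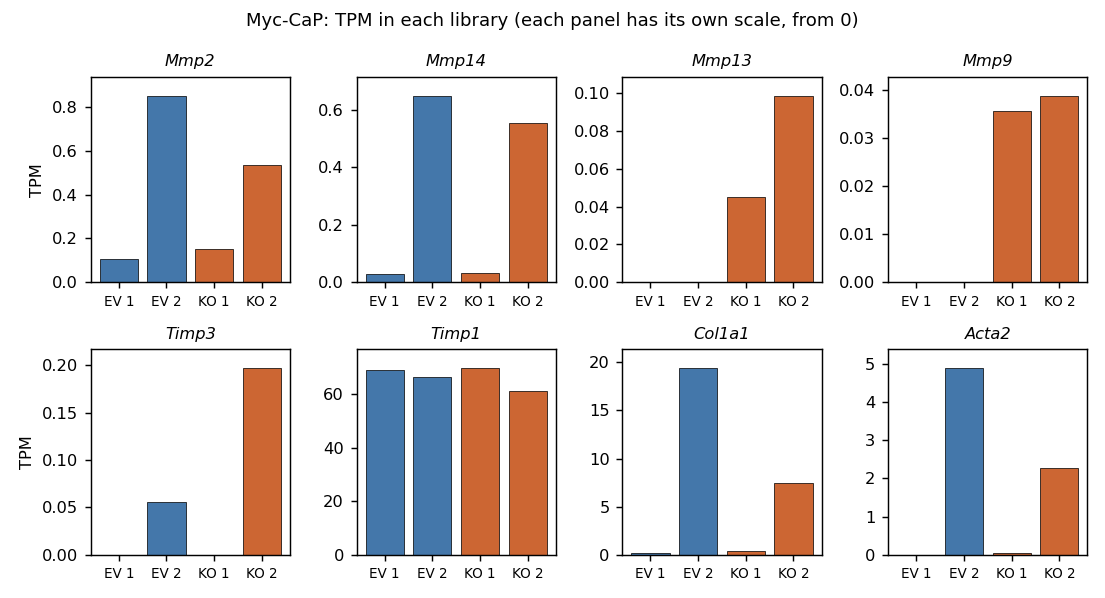
TPM in each of the 4 Myc-CaP libraries for 6 of the transcripts and for Col1a1 and Acta2, as bars from 0 with a scale for each panel. Mmp2, Mmp14, Col1a1 and Acta2 are higher in both number 2 libraries, while Timp1 lies between 60.9 and 69.6 in all 4.

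Cell type markers set the frame for these levels. Leukocyte markers summed to between 3.50 and 5.49 TPM in the 4 Myc-CaP libraries, most of it Cd52, with Ptprc at 0 in 3 of 4. Neutrophil markers summed to at most 0.435, with 9 to 12 of 12 genes at 0. Macrophage markers summed to between 8.29 and 13.2, mostly from Cd14, and C1qa and C1qc were at 0 in all 4. Epithelial markers were also low, at 1.36 and 1.30 TPM summed in EV and 41.5 and 48.0 in KO, the latter mostly Krt8 (1.07 and 0.790 in EV, 40.3 and 38.8 in KO), while Epcam was at 0 in 3 of 4 libraries. The defining epithelial markers Epcam and Cdh1 were thus at or near 0 in the cell line.

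Of the wider protease lists in Myc-CaP, 0 of 4 tested other Mmp genes and 0 of 2 tested inhibitors were called by limma, with 2 and 1 at an unadjusted p under 0.05. In the plasminogen system 1 of 6 rose, Furin, from a mean of 55.7 to 79.8 TPM (log2 fold change 0.51, adjusted p = 0.0149). Among ADAM proteases 2 of 7 rose, Adam8 from 2.63 to 6.90 (1.12, adjusted p = 0.0186) and Adam10 from 87.1 to 123 (0.50, adjusted p = 0.0404). Among matrix genes 3 of 8 rose, Fn1 (897 to 1220), Lama3 (3.97 to 7.29) and Lamb3 (4.01 to 7.16), and 0 fell. All 6 of these calls were lost when any 1 of the 4 libraries was left out, which left between 47 and 76 genes called in place of 899.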

How the data were processed

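RNA-seq libraries of 6 sorted mouse prostate epithelium samples and 4 Myc-CaP samples were grouped by the genotype in their labels. Paired-end reads had been mapped by the authors to GRCm38 (the methods name TopHat2, the submitters' processing notes HISAT2), counted per gene and by strand with HTSeq-count, and deposited as RPKM for the epithelium and as TPM for Myc-CaP. Gene lengths and annotation are not given in the sources used here. Neither unit is a count, so no count model was fitted and no counting interval is given, and TPM keeps no depth. Values of the 10 per-sample files and the series tables were compared, and 0 differed. Each table was fitted alone with limma 3.58.1 (eBayes with a trend, R 4.3.3) on log2(value + 1), which understates changes of low genes, for genes with a mean of at least 0.5. P-values were two-sided and Benjamini-Hochberg adjusted over the table. Ratios within a library used exact permutation tests. Alternatives changed the pseudocount, filter, scaling, variance trend, length trend and block, or left out a library. Named were the 10 transcripts, called genes of 5 protease and matrix lists (at most 4 in each direction) and the 2 most abundant genes of each cell type list. Results of some single genes, and an allele shared by all epithelium samples, are not reported here. Further single genes were chosen after their values were seen. The transcripts and all lists were chosen with earlier results of these data known. Positions came from GENCODE M21 on GRCm38, which named 62.3% of rows.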

Additional observations from a re-analysis of the deposited data

Results flagged for a closer look

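For 7 genes of the wider protease, inhibitor and matrix lists, both Myc-CaP KO libraries lay on one side of both EV libraries while all 3 epithelium libraries labelled Arid1a KO lay on the other side of all 3 controls. The difference between the systems was not tested, because the tables differ in unit and normalization. The log2 fold change in the epithelium and then in Myc-CaP was 1.49 and -0.48 for Mmp19 and 1.35 and -0.29 for Plaur, the urokinase receptor. It was 0.89 and -0.30 for Plat, the tissue plasminogen activator, and 0.64 and -0.10 for Adam17, the TNF convertase. In the other direction it was -0.49 and 0.18 for Timp2, -0.70 and 0.36 for Mmp24, and -0.24 and 0.20 for Adam15. Only the 10 transcripts and list genes called in at least 1 of the systems, at most 4 in each direction per list, were searched. A call was thus a condition of entry for these 7 and is no support for them. Separation of the groups is also common, since in the epithelium they did not overlap for 66.7% of all tested genes. How many genes were searched is not given, nor the share of all genes that separate in Myc-CaP or to opposite sides in the systems. Whether 7 is more than other genes would give is therefore not known. All 7 were called in the epithelium, and 0 of 7 by limma in Myc-CaP, where 5 had an unadjusted p under 0.05. None of the 10 transcripts studied is among these genes.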

How the results depend on the processing

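In the epithelium, Mmp12, Mmp13, Mmp9, Mmp7, Mmp2 and Timp1 kept direction and call in all 14 alternatives, and Mmp8 in the 13 in which it was tested, since a minimum mean of 5 RPKM removed it. Timp3, Mmp14 and Mmp3 changed their call, by the settings given with their values. Between 7 and 9 of the 10 transcripts were called under every setting, of 9 in the reported fit. Over the alternatives the share of all tested epithelium genes called ran from 28.1% with no filter to 65% with a minimum mean of 5. A minimum mean of 5 lowered the genes called over the whole epithelium table from 9294 to 5872, with fewer genes tested. In Myc-CaP 899 genes were called, against 358 with no filter, 451 with no variance trend, 2771 with the replicate block and between 47 and 76 with 1 library left out, and 0 of the 10 transcripts were called in any of these. Timp1 turned from -0.05 to 0.04 without KO library 2, and ranged from -0.15 to 0.04 with 1 library left out. Where 1 library of an arm remained, it was assumed to vary like the others. The cause of the moved counts was not tested.

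The libraries carry letters or numbers that are shared between groups. Same-letter deviations from the group means correlated at 0.04, 0.01 and -0.06 in the epithelium for A, B and C. These values show no pairing by letter but cannot exclude it. In Myc-CaP same-number libraries correlated at 0.19 and libraries of unlike number at -0.19. With 2 libraries in a group the deviations mirror each other, so this is a single value and cannot settle pairing. With the replicate block 8823 epithelium genes (54.2% of those tested) and 9 of the 10 transcripts were called. The share of Myc-CaP calls that were higher was 52.4% with the block against 70.6% without it. Lengths from M21 covered 89.1% of tested epithelium genes and 85.5% in Myc-CaP. Depth behind single values is unknown, so low levels such as Mmp8 in the controls carry an unstated counting error.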
